A study of Mus musculus with 20 samples.

Results

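Fosl1, Phlda1, Dusp4, Etv4 and Mafk are 5 genes named as transcriptional output of the ERK pathway, the mitogen-activated protein kinase (MAPK) cascade that runs downstream of ERBB receptors. They were taken by symbol as 5 of the 46329 gene rows counted in every library, by name; the rule itself used no measured value, but the genes were picked with earlier results of these data known. In mouse colorectal tumors and the tissue beside them, the Fosl1 and Phlda1 rows were higher in tumors of Erbb2-deficient mice than in the adjacent tissue of those mice, 2.27-fold and 3.08-fold. In control mice neither row passed the test. No difference in these 5 rows between Erbb2-deficient and control mice passed the test. The reads appear to have been counted on the strand opposite to their transcripts, so a row may mainly hold transcripts of another gene. The row of Ccdc85b, which lies opposite Fosl1, rose 7.95-fold in Erbb2-deficient tumors and 12.1-fold in control tumors.

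Ligand binding to ERBB receptors activates RAS, RAF, MEK and ERK kinases in turn, and Erbb2, which has no known ligand, acts as a partner of the other receptors. ERK enters the nucleus and induces transcription factors of the AP-1 and ETS families, together with phosphatases and other inhibitors that act back on the cascade, and the RNA level of such genes is commonly read as a measure of pathway output. In the intestine the cascade drives proliferation of crypt cells and is often raised in colorectal cancer.

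The study asked how Erbb2 bears on colorectal tumors of mice with the ApcMin allele of Apc, a truncating mutation of a Wnt pathway inhibitor that gives rise to intestinal tumors. RNA was sequenced from 20 samples of C57BL/6J mice aged 100 days, all of them ApcMin/+ and Erbb2f/f, which means that both copies of Erbb2 were floxed. The 4 groups of 5 libraries were tumor and adjacent tissue of Erbb2-deficient mice and tumor and adjacent tissue of control mice. Erbb2-deficient mice also carried Tg(Vil1-cre), a cre recombinase driven by the Villin promoter, which is active in intestinal epithelium and not in muscle, connective tissue or immune cells. Control mice were littermates without cre, which the labels also call WT although they carried the floxed alleles and ApcMin. The genotypes therefore differ by the cre transgene as well as by Erbb2. The labels call the replicates biological but do not tie replicate numbers to mice, so p-values measure the spread between these libraries.

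Each library had 1071737 to 1944309 counts on genes, which were 2.51% to 3.45% of its reads, while 78.6% to 85.1% of its reads lay on no counted feature. The reads appear to have been counted on the strand opposite to their transcripts. The row of ND6, a mitochondrial gene whose coding strand is opposite to that of the other mitochondrial protein genes, held 22599 to 199495 counts, against 884 to 5698 for the other 12 together, and was above them in 20 of 20 libraries. The Gapdh row, of an abundant glycolytic enzyme, held 0 to 12 counts. A row is therefore named here by its symbol, and where another gene lies on the opposite strand the row may mainly hold transcripts of that gene. The share of a row that comes from either gene was not tested. The row of the targeted gene, Erbb2, had at most 22 counts in a library and checks the deletion poorly. It averaged 4.44 ± 2.87 CPM in Erbb2-deficient tumors, against 4.31 ± 2.30 CPM in control tumors, and 10.5 ± 5.19 CPM in Erbb2-deficient adjacent tissue, against 6.97 ± 3.96 CPM in control adjacent tissue (SD, n = 5 each).

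Among the control tumors, 2 libraries differed from the rest in their cell type markers. In control tumor 2 the summed level of 7 epithelial marker rows was 15.4 CPM, with Epcam, Krt8, Krt18, Krt19 and Cdh1 at 0. All 7 goblet cell rows were at 0 there. Its B cell and MHC class II rows summed to 1038 CPM, against 359 to 542 CPM in the other control tumors. Among these rows Ciita averaged 476 CPM in control tumors. The Ciita row lies opposite Dexi and may mainly hold Dexi transcripts. Control tumor 3 held 67.1 CPM of Wnt target rows, against 407 to 738 CPM in control tumors 1, 4 and 5, and 582 CPM of goblet cell rows, against 33.0 to 42.8 CPM in those 3, with the absorptive colonocyte rows at 112 CPM and the smooth muscle rows at 515 CPM, also the highest of the control tumors. It was the lowest control library for Fosl1 and the highest control tumor for Etv4 and Dusp4. The adjacent samples are labelled as epithelium, yet the 8 smooth muscle rows, Myh11 and Acta2 among them, summed to 1047 to 1381 CPM in Erbb2-deficient and to 1067 to 2516 CPM in control adjacent tissue, against 161 to 251 CPM in Erbb2-deficient and 160 to 515 CPM in control tumors. Tagln and Smtn were the largest of these rows, at means of 443 and 439 CPM in Erbb2-deficient adjacent tissue. They lie opposite Pcsk7 and Gm11946 and may mainly hold transcripts of those genes. The Myh11 row averaged 112 CPM in Erbb2-deficient adjacent tissue against 3.41 CPM in Erbb2-deficient tumors.

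Levels are given as normalized CPM, which is counts relative to a library's total (CPM, on the usual scale of edgeR) after scaling by its TMM factor, over the 7119 rows with enough counts to test. Tests were edgeR's quasi-likelihood tests on the counts, with p-values adjusted over those 7119 rows by the Benjamini-Hochberg method and a threshold of 0.05. All 5 genes passed the count filter. In Erbb2-deficient mice 2 of the 5, Fosl1 and Phlda1, were higher in tumors and 0 were lower, where 13.0% of all tested rows were higher and 14.5% lower. In control mice 0 of the 5 passed in either direction, where 10.7% of tested rows were higher in tumors and 10.9% lower. Between genotypes, in tumors or in adjacent tissue, and in the test of whether the tumor difference depended on genotype, 0 of the 5 passed, where 0% of tested rows did.

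**Figure D1:**
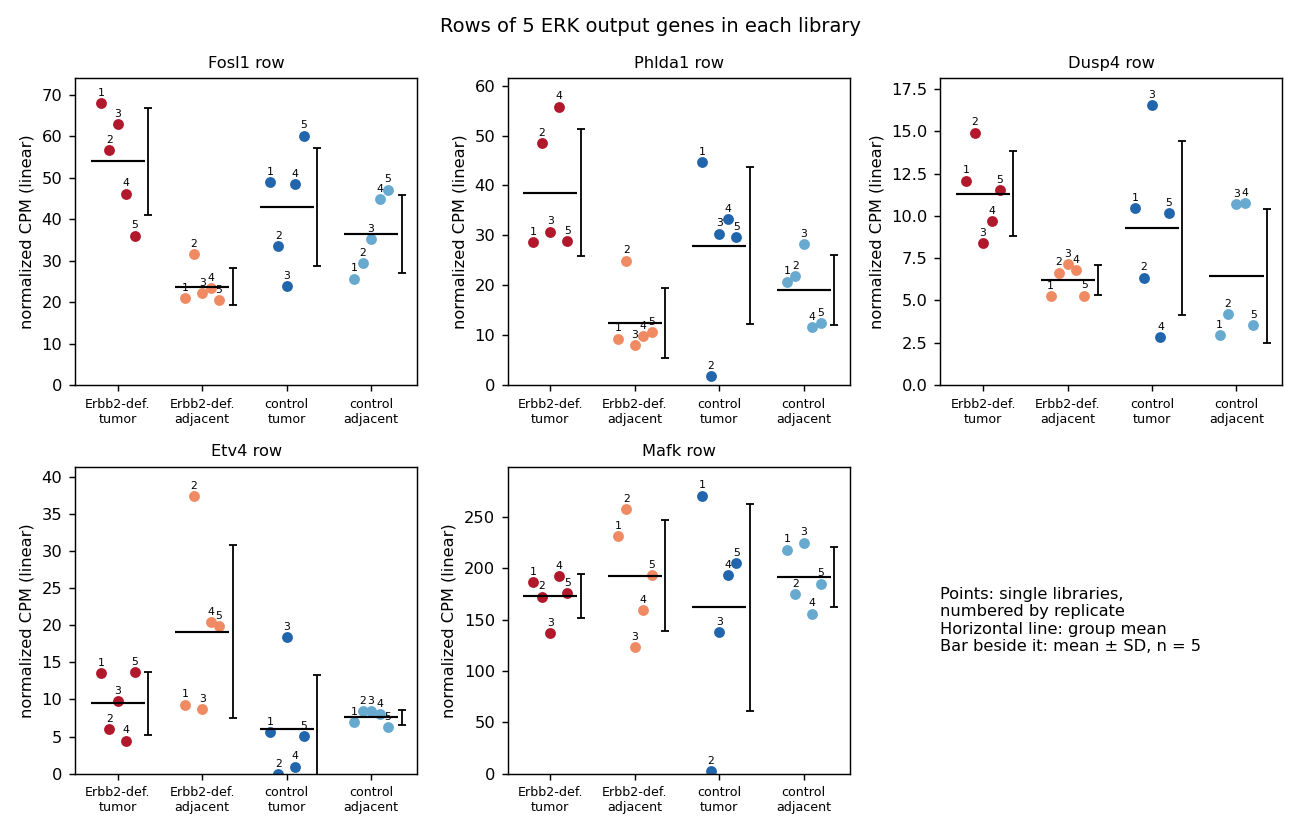
Normalized CPM (linear axes) of the Fosl1, Phlda1, Dusp4, Etv4 and Mafk rows in each of 20 libraries, numbered by replicate, by group, with a line at the group mean and a bar for the mean ± SD of 5 libraries (the bar of the Etv4 control tumors is cut off at 0). All 5 Erbb2-deficient tumors lie above all 5 Erbb2-deficient adjacent samples for Fosl1, Phlda1 and Dusp4, and control tumor 2 is the lowest library for Phlda1, Etv4 and Mafk. How many of all tested rows separate in this way was not counted.

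Dusp4 encodes a nuclear dual-specificity phosphatase that removes phosphates from ERK and related kinases, and so acts back on the cascade that induces it. Its row had 12.1, 14.9, 8.38, 9.68 and 11.5 CPM in Erbb2-deficient tumors 1 to 5, against 5.24, 6.65, 7.14, 6.81 and 5.29 CPM in Erbb2-deficient adjacent samples 1 to 5. It had 10.5, 6.35, 16.6, 2.86 and 10.2 CPM in control tumors, against 2.96, 4.20, 10.7, 10.8 and 3.56 CPM in control adjacent samples. In Erbb2-deficient mice every tumor was above every adjacent sample, while in control mice the groups overlapped, with control tumor 4 the lowest of all libraries. For this row and those below, the share of all tested rows with such a separation was not counted, so the separation is a description. The counts behind these values were low, 3 to 20 per library.

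The tumor difference of the Dusp4 row did not pass the test in either genotype. Its log2 fold change was 0.86 ± 0.40 (SE) in Erbb2-deficient mice, with an adjusted p of 0.115 by edgeR and a 95% interval of 0.03 to 1.69, and 0.51 ± 0.41 in control mice, with an adjusted p of 0.401. The adjusted p fell below the threshold in 2 of 30 alternative analyses. It was 0.0246 when only the groups compared were fitted and 0.0482 with limma voom with sample weights. Between genotypes the log2 fold change was 0.28 ± 0.39 in tumors (95% interval -0.54 to 1.09) and -0.07 ± 0.42 in adjacent tissue (95% interval -0.94 to 0.80). With intervals of this width the genotypes are not shown to be alike. By group mean the order was Erbb2-deficient tumors at 11.3 ± 2.50 CPM, control tumors at 9.28 ± 5.12 CPM, control adjacent tissue at 6.44 ± 3.95 CPM and Erbb2-deficient adjacent tissue at 6.23 ± 0.896 CPM (SD, n = 5 each). Neighbours in this order that were tested against each other did not pass the test.

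Phlda1 encodes a pleckstrin homology-like domain protein that is induced by growth factors and marks crypt stem and progenitor cells of the mouse intestine. Its row had 28.7, 48.5, 30.7, 55.8 and 28.8 CPM in Erbb2-deficient tumors, against 9.31, 24.9, 7.94, 9.84 and 10.6 CPM in Erbb2-deficient adjacent samples. It had 44.7, 1.82, 30.4, 33.3 and 29.7 CPM in control tumors, against 20.7, 21.8, 28.3, 11.7 and 12.5 CPM in control adjacent samples. All Erbb2-deficient tumors lay above all adjacent samples of that genotype, of which sample 2 was well above the other 4. In control mice, 4 tumors lay above all adjacent samples and control tumor 2, at 2 counts, lay below them.

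The Phlda1 row rose 3.08-fold in Erbb2-deficient tumors, a log2 fold change of 1.62 ± 0.49 (SE) with an adjusted p of 0.0170 by edgeR. Each of 31 alternative analyses kept this call, with log2 fold changes between 1.38 and 2.03 and adjusted p values between 0.000438 and 0.0422. In control mice the log2 fold change was 0.56 ± 0.48, with an adjusted p of 0.435 and a 95% interval of -0.44 to 1.56. Without control tumors 2 and 3, the libraries chosen for removal because they stood apart in earlier results, it was 0.90 with an adjusted p of 0.0672. The difference of these tumor effects between genotypes was 1.07 ± 0.68 on the log2 scale, with an unadjusted p of 0.131 and an adjusted p of 1, so a rise in Erbb2-deficient mice alone is not shown.

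Between genotypes the Phlda1 row differed by 0.45 ± 0.47 in tumors, with a 95% interval of -0.52 to 1.43, and by -0.61 ± 0.49 in adjacent tissue, with a 95% interval of -1.64 to 0.41. From high to low the group means were 38.5 ± 12.8 CPM in Erbb2-deficient tumors, 28.0 ± 15.8 CPM in control tumors, 19.0 ± 6.97 CPM in adjacent tissue of control mice and 12.5 ± 7.01 CPM in that of Erbb2-deficient mice (SD, n = 5 each). Neighbours in this order did not pass the test. Without control tumor 2 the other 4 control tumors averaged 34.5 ± 6.97 CPM. The gene that GENCODE M21 places opposite Phlda1, Gm28592, is not among the counted symbols, and the Phlda1 row may hold its transcripts. Of its nearest coding neighbours, the row of Nap1l1, a histone chaperone gene, also rose in Erbb2-deficient tumors. The log2 fold change was 1.25 ± 0.44, with an adjusted p of 0.0373 by edgeR. That call was lost in 8 of 30 alternative analyses. In control mice the Nap1l1 value was close to this, at 1.14 ± 0.44, with an adjusted p of 0.0702 by edgeR. For Krr1, the other neighbour, the log2 fold change of Erbb2-deficient over control mice was -1.05 ± 0.34 in tumors and -0.97 ± 0.34 in adjacent tissue. Neither passed the test.

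Fosl1 encodes FRA1, a subunit of the AP-1 transcription factor whose gene and protein both respond to ERK. Its row had 68.0, 56.7, 62.9, 46.2 and 36.02 CPM in Erbb2-deficient tumors, against 21.0, 31.6, 22.2, 23.5 and 20.5 CPM in Erbb2-deficient adjacent samples. It had 48.9, 33.6, 23.9, 48.6 and 60.2 CPM in control tumors, against 25.7, 29.4, 35.2, 44.8 and 47.2 CPM in control adjacent samples. The tumor and adjacent groups did not overlap in Erbb2-deficient mice and overlapped across most of their range in control mice, where control tumor 3 was the lowest of the 10 libraries. With 26 to 90 counts per library, the Fosl1 row rested on more reads than the Dusp4 row.

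The Fosl1 row rose 2.27-fold in Erbb2-deficient tumors, a log2 fold change of 1.18 ± 0.27 (SE) with an adjusted p of 0.00287 by edgeR and a 95% interval of 0.62 to 1.75. The call held in 31 of 31 alternative analyses, with adjusted p values between 0.000119 and 0.0160. In control mice the log2 fold change was 0.24 ± 0.27, with an adjusted p of 0.558 and a 95% interval of -0.32 to 0.80, and without control tumors 2 and 3 it was 0.52 with an adjusted p of 0.144. In these bulk samples, a different number of cells that hold the RNA and a different amount of RNA per cell cannot be told apart.

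Between genotypes the Fosl1 row lay further apart in adjacent tissue than in tumors. In adjacent tissue the log2 fold change of Erbb2-deficient over control mice was -0.62 ± 0.27, with an unadjusted p of 0.0328 and an adjusted p of 0.808, and in tumors it was 0.32 ± 0.26, with an adjusted p of 0.688 and a 95% interval of -0.23 to 0.87. The difference of the tumor effects between genotypes was 0.94 ± 0.38, with an unadjusted p of 0.0211, and its adjusted p of 1 did not pass. The order of group means was Erbb2-deficient tumors at 53.9 ± 12.9 CPM, control tumors at 43.0 ± 14.3 CPM, control adjacent tissue at 36.4 ± 9.38 CPM and Erbb2-deficient adjacent tissue at 23.7 ± 4.53 CPM (SD, n = 5 each). Of these groups, neighbours did not differ beyond the test's threshold, and the first and the last did.

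Fosl1 overlaps Ccdc85b, a gene for a small coiled-coil protein on the opposite strand, so with reads counted on the opposite strand the Ccdc85b row may hold Fosl1 transcripts and the Fosl1 row may hold Ccdc85b transcripts. The Ccdc85b row had 306, 599, 452, 382 and 168 CPM in Erbb2-deficient tumors, against 87.9, 93.9, 14.3, 33.3 and 9.92 CPM in Erbb2-deficient adjacent samples. It had 170, 9.08, 173, 309 and 290 CPM in control tumors, against 17.8, 10.1, 19.1, 19.7 and 11.6 CPM in control adjacent samples. Every Erbb2-deficient tumor was above every Erbb2-deficient adjacent sample, and every control tumor other than control tumor 2 was above every control adjacent sample.

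The Ccdc85b row rose 7.95-fold in Erbb2-deficient tumors and 12.1-fold in control tumors. Without control tumor 2 the control tumors averaged 235 ± 74.2 CPM (SD, n = 4), against 190 ± 120 CPM with it, and the log2 fold change in control mice was 3.89. With all libraries the log2 fold changes were 2.99 ± 0.66 (SE) in Erbb2-deficient mice, with an adjusted p of 0.00231 by edgeR, and 3.59 ± 0.70 in control mice, with an adjusted p of 0.00127. Both calls held in each of 31 alternatives, which were run on this row after its values were seen. The tumor effects differed between genotypes by -0.60 ± 0.89, with an adjusted p of 1. Between genotypes the row differed by 1.61 ± 0.67 in adjacent tissue, with an unadjusted p of 0.0255 and an adjusted p of 0.800, so the Fosl1 row was lower and the Ccdc85b row higher in Erbb2-deficient adjacent tissue without either difference passing the test. Which share of each row comes from which gene was not tested.

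**Figure D2:**
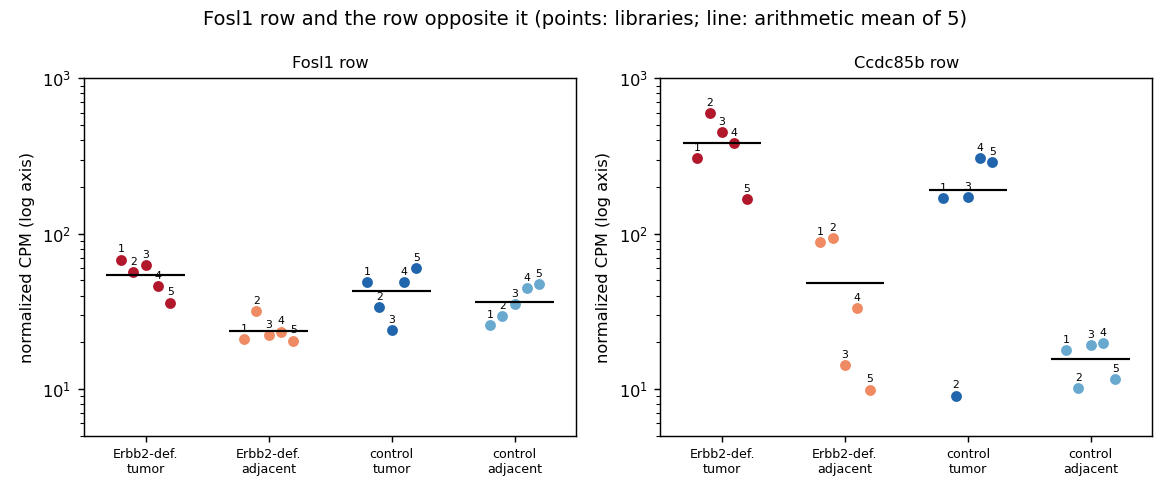
Normalized CPM (log axes) of the Fosl1 row and of the Ccdc85b row, which lies on the opposite strand, in each of 20 libraries, numbered by replicate, with a line at the arithmetic mean of each group of 5. Tumors other than control tumor 2 (9.08 CPM) lie at 168 CPM or more on the Ccdc85b panel and adjacent samples at 93.9 CPM or less, while on the Fosl1 panel the control tumors and control adjacent samples overlap.

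Etv4 encodes a PEA3-type ETS transcription factor whose expression follows ERK signaling in many epithelia. Its row had 13.6, 5.97, 9.78, 4.47 and 13.7 CPM in Erbb2-deficient tumors, against 9.31, 37.4, 8.73, 20.4 and 19.9 CPM in Erbb2-deficient adjacent samples. It had 5.58, 0, 18.4, 0.952 and 5.08 CPM in control tumors, against 6.91, 8.40, 8.42, 8.07 and 6.23 CPM in control adjacent samples. Control adjacent samples were close together, Erbb2-deficient adjacent samples were spread widely and all above them, by a small margin for the lowest, and control tumors ranged from no count to the level of Erbb2-deficient adjacent tissue. A count of 0 in control tumor 2 allows up to 2.72 CPM, the level of 3 counts.

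In adjacent tissue the Etv4 row was the member furthest apart between genotypes. Erbb2-deficient samples averaged 19.1 ± 11.6 CPM and control samples 7.60 ± 0.985 CPM (SD, n = 5 each), a log2 fold change of 1.31 ± 0.59 (SE) that was larger in size than that of 98.2% of tested rows. Its unadjusted p was 0.0386 and its adjusted p 0.823 by edgeR, so it did not pass, and the adjusted p stayed between 0.313 and 1 in 29 alternatives. The log2 fold change was 0.91 without Erbb2-deficient adjacent sample 2, whose 37.4 CPM was the highest value of the row. The 7 epithelial rows summed to 247 to 590 CPM in Erbb2-deficient and to 250 to 365 CPM in control adjacent tissue, and the part of epithelial content in this difference was not tested.

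The Etv4 row was not higher in tumors in either genotype. Its tumor difference was -0.99 ± 0.57 in Erbb2-deficient mice, with an adjusted p of 0.207 and a 95% interval of -2.19 to 0.20, and limma voom alone of 30 alternatives called it lower, at -1.31 with an adjusted p of 0.00918. In control mice it was -0.34 ± 0.64, with an adjusted p of 0.747, and single libraries moved it, to -1.29 without control tumor 3, -0.04 without control tumor 2 and -0.08 without control tumor 4. In tumors the Erbb2-deficient group averaged 9.50 ± 4.25 CPM and the control group 6.00 ± 7.35 CPM, a log2 fold change of 0.66 ± 0.62 with a 95% interval of -0.64 to 1.95. This value was 1.64 without control tumor 3, 0.35 without control tumor 2, where the control tumors averaged 7.504 ± 7.552 CPM (SD, n = 4), and 0.39 without control tumor 4. From high to low the groups were Erbb2-deficient adjacent tissue, Erbb2-deficient tumors, control adjacent tissue and control tumors, and no neighbours that were tested passed the test. In GENCODE M21 no exon of another gene lies opposite Etv4 or Dusp4. With reads counted on the opposite strand, the rows of both genes may still not hold their own transcripts, and which transcripts they hold was not tested.

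Mafk encodes a small Maf protein, a DNA-binding partner without an activation domain of its own that pairs with CNC factors such as Nfe2l2. Its row was the deepest of the 5 and had 187, 172, 137, 192 and 176 CPM in Erbb2-deficient tumors, against 232, 258, 123, 159 and 193 CPM in Erbb2-deficient adjacent samples. It had 271, 2.72, 138, 193 and 205 CPM in control tumors, against 218, 175, 225, 156 and 185 CPM in control adjacent samples. Apart from control tumor 2, with 3 counts, the 19 libraries lay within one band in which all groups overlapped. Tmem184a, a gene for a transmembrane protein, lies opposite Mafk, and its own row had 0 to 8 counts and was not tested. With reads counted on the opposite strand the Mafk row may mainly hold Tmem184a transcripts.

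The Mafk row averaged 173 ± 21.6 CPM in Erbb2-deficient tumors and 193 ± 54.1 CPM in Erbb2-deficient adjacent tissue, a log2 fold change of -0.16 ± 0.51 with an adjusted p of 0.847 by edgeR. It averaged 162 ± 101 CPM in control tumors, or 202 ± 54.5 CPM in the 4 without control tumor 2, and 192 ± 29.2 CPM in control adjacent tissue (SD, n = 5 otherwise). The log2 fold change of control tumors was -0.24 ± 0.51 with all libraries and 0.06 without control tumor 2. Between genotypes it was 0.09 ± 0.51 in tumors, with a 95% interval of -0.97 to 1.15, and 0.01 ± 0.51 in adjacent tissue, with a 95% interval of -1.05 to 1.07. With intervals of this width equal levels are not shown. The fit estimates the spread of a row over all 20 libraries, control tumor 2 included. The interval in adjacent tissue therefore does not measure the spread of the adjacent samples alone. No tested difference between the group means passed the test.

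**Figure D3:**
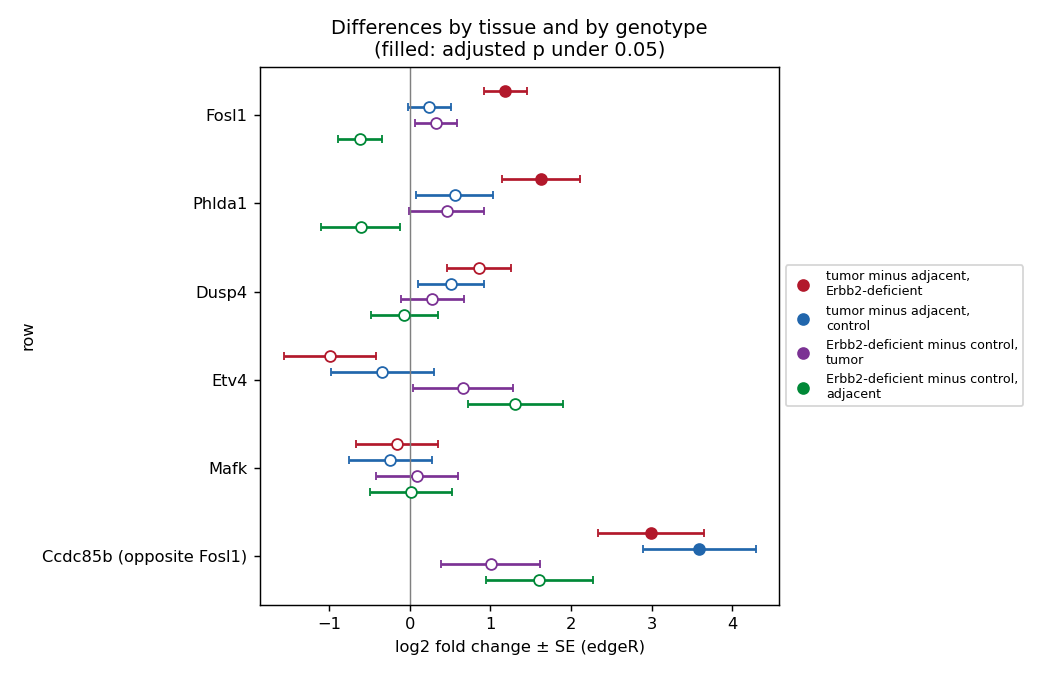
Log2 fold changes ± SE from edgeR for the 5 rows and Ccdc85b, tumor over adjacent tissue in each genotype and Erbb2-deficient over control mice in each tissue, with filled points for an adjusted p under 0.05. In Erbb2-deficient mice the tumor values are 1.18 for Fosl1 and 1.62 for Phlda1, both filled, and 0.86 for Dusp4, -0.99 for Etv4 and -0.16 for Mafk, which are open.

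The rows of the 5 genes thus differed in pattern. Fosl1, Phlda1 and Dusp4 had the same order of group means, with Erbb2-deficient tumors highest and Erbb2-deficient adjacent tissue lowest, whereas Etv4 was highest in Erbb2-deficient adjacent tissue. The comparisons of tissue and of genotype share libraries, so this order is a description. Control tumor 2, poor in epithelial rows, held 1.82 CPM of Phlda1, 0 CPM of Etv4 and 2.72 CPM of Mafk, each the lowest of the 20 libraries, but its 33.6 CPM of Fosl1 and 6.35 CPM of Dusp4 were within the range of the other control tumors.

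Cell type markers moved with the tumor comparison in which Fosl1 and Phlda1 rose. In Erbb2-deficient mice 7 of 7 tested rows of an 11-gene Wnt target list rose, with sums of 504 to 853 CPM in tumors against 8.60 to 14.3 CPM in adjacent tissue, and 8 of 8 smooth muscle rows fell. The 7 epithelial rows summed to 309 to 607 CPM in tumors, against 247 to 590 CPM in adjacent tissue, and 0 of them passed the test. In alternatives without mitochondrially encoded rows or without control tumors 2 and 3, Krt18 alone of them passed, as higher in Erbb2-deficient tumors. Without control tumors 2 and 3, Krt18 was also called higher and Krt20 lower in tumors of control mice. In control mice, where Fosl1 and Phlda1 did not pass, the same 7 Wnt target rows also rose and 8 of 8 smooth muscle rows fell. Of the goblet cell rows, 4 of 6 tested fell in Erbb2-deficient and 3 of 6 in control tumors, and 4 of 4 absorptive colonocyte rows fell in both genotypes. Of 4 tested fibroblast and matrix rows, Col1a1 and Sparc rose in Erbb2-deficient tumors, with a list median of 1.83 and sums over 7 rows of 46.8 to 163 CPM in tumors against 11.9 to 54.0 CPM in adjacent tissue. In control mice 0 of the 4 passed, with a list median of 0.34 and sums of 19.1 to 73.3 CPM in tumors against 11.6 to 111.5 CPM in adjacent tissue, and the interaction had an adjusted p of 1 for each. Without control tumors 2 and 3, all 4 of these rows rose in Erbb2-deficient tumors and 0 of 4 passed in control mice. Over all tested rows in the fit with all libraries, 13.0% rose and 14.5% fell in Erbb2-deficient tumors, and 10.7% rose and 10.9% fell in control tumors. The part of tissue makeup in the Fosl1 and Phlda1 differences was not tested.

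By the root mean square difference of centred log2 CPM over 20 libraries, the rows most like Fosl1 among 5077 candidates were Msantd2 (0.324), Bivm (0.339) and Rhof (0.345), where the median candidate was at 0.815. The rows most like Phlda1 were Ccdc24 (0.496), Focad (0.499) and Zfhx3 (0.500), against a median of 1.12. Mafk was nearest to Grin1 (0.366), Cox11 (0.378) and Cyb561 (0.380), against a median of 1.34. For Dusp4 they were Gnb1 (0.408), Ruvbl2 (0.409) and H3f3b (0.409), and for Etv4 Mir6386 (0.542), Arhgap21 (0.591) and Cgn (0.610). None of the 5 genes was among the 3 rows nearest to another of them. Rows with more counts have less counting noise, so such distances depend on depth as well as on pattern.

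The other genes of the pathway were mostly too low to test. None of 9 further ERK and MAPK phosphatase rows (Dusp genes) and none of 7 Sprouty and Spred rows, inhibitors of RAS activation, passed the count filter. Dusp6, the ERK-specific phosphatase, averaged 2.15 counts per library, and Spry2 5.2 counts. The immediate early gene Egr1 averaged 1.85 counts and Phlda2 4.25 counts. Etv5, a PEA3-type relative of Etv4, had 3 to 7 counts in each Erbb2-deficient tumor and 0 counts in all 5 Erbb2-deficient adjacent samples, against 0 to 3 counts in control tumors and 0 to 1 in control adjacent samples. With no filter on low counts, an alternative added for these rows after their values were seen, edgeR called 4 of the 57 listed rows under the filter higher in Erbb2-deficient tumors than in their adjacent tissue (Etv5, Ier3, Tgfa and Hbegf) and 1 lower (Nrg2). The adjusted p for Etv5 was 0.00167, and for Ier3, an immediate early gene, 0.000687. In control mice and between genotypes 0 of the 57 were called in that fit, and the tumor difference of these rows was not called to depend on genotype. The share of all rows called with no filter is not given here. In the fit with the filter, 13.0% of all tested rows were higher in Erbb2-deficient tumors than in adjacent tissue and 14.5% lower. The 4 and 1 rows called are therefore not read as a result about the lists. The few counts behind these rows limit what can be seen in them.

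Of 8 AP-1 rows other than Fosl1, 5 were tested, and in Erbb2-deficient tumors 2 rose and 0 fell, with a list median of 0.47 where the median of all rows was -0.06. Of all tested rows 13.0% rose and 14.5% fell in Erbb2-deficient tumors, and 10.7% rose and 10.9% fell in control tumors. These shares apply to the pathway lists below as well. With so few rows tested per list, the counts describe single rows and are not read as a result about a list. Jun, the main partner of Fos proteins in AP-1, averaged 27.5 CPM in Erbb2-deficient tumors against 7.39 CPM in adjacent tissue, a log2 fold change of 1.89 ± 0.48 with an adjusted p of 0.00598 by edgeR. Junb, a Jun relative, averaged 35.2 CPM against 14.5 CPM, a log2 fold change of 1.26 ± 0.36 with an adjusted p of 0.0132. In control mice 0 of the 5 passed, with a list median of -0.31 where that of all rows was 0.07. Jun averaged 14.3 CPM in control tumors against 6.15 CPM in control adjacent tissue, with an adjusted p of 0.0877, and Junb 20.3 CPM against 15.1 CPM.

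The AP-1 counts depended on the control libraries. Without control tumors 2 and 3, an alternative added for the lists after the data were seen, Jun rose in control tumors as well and Jund fell in both genotypes. For Jun and Junb the interaction of genotype and tissue had an adjusted p of 1. The Jun row lies opposite the antisense gene Junos and the Junb row opposite Prdx2, a peroxiredoxin gene, and each row may mainly hold transcripts of that gene.

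Among 7 ETS rows other than Etv4, 3 were tested, with list medians of 0.82 in Erbb2-deficient and 1.31 in control mice. Ets2, an ETS factor phosphorylated by ERK, rose in Erbb2-deficient tumors, with 19.95 CPM in tumors against 6.39 CPM in adjacent tissue and a log2 fold change of 1.63 ± 0.43 (adjusted p = 0.00825 by edgeR). In control mice its log2 fold change was 1.31 ± 0.50, with an adjusted p of 0.0693. Elk4, a ternary complex factor, fell in both genotypes, to 39.0 CPM in Erbb2-deficient tumors against 167 CPM in their adjacent tissue and to 32.5 CPM in control tumors against 150 CPM. Its row lies opposite Mfsd4a. Elk3, a further ternary complex factor whose row lies opposite Cdk17, rose in control tumors by 1.40 ± 0.40 with an adjusted p of 0.0172, a call lost without control tumor 2. Without control tumors 2 and 3 together, Elk3 and Ets2 rose and Elk4 fell in both genotypes.

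Of 8 rows of small Maf proteins and their CNC partners other than Mafk, 6 were tested and the same 2 rose in both genotypes. Mafg, a small Maf protein closely related to Mafk, averaged 356 CPM in Erbb2-deficient tumors against 68.9 CPM in their adjacent tissue, a log2 fold change of 2.37 ± 0.40 with an adjusted p of 0.000305 by edgeR. In control mice it averaged 298 CPM in tumors against 88.7 CPM in adjacent tissue, a log2 fold change of 1.75 ± 0.40 with an adjusted p of 0.00395. In GENCODE M21 the gene Gm17586 lies close to Mafg on the opposite strand, without overlap of exons. Which transcripts the Mafg row holds was not tested. Bach2, a repressor that pairs with small Maf proteins and whose row lies opposite Bach2os, rose by 2.77 ± 0.51 in Erbb2-deficient and by 2.19 ± 0.45 in control tumors. The list medians were 0.26 in Erbb2-deficient and 0.43 in control mice.

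Of 13 other ERK target rows 3 were tested, with list medians of -0.01 in Erbb2-deficient and 0.49 in control mice. The row of Egr2, a zinc finger immediate early gene, rose in both genotypes, with 1017 CPM in Erbb2-deficient tumors against 585 CPM in their adjacent tissue (log2 fold change 0.80 ± 0.18, adjusted p = 0.00254 by edgeR) and 1068 CPM in control tumors against 685 CPM (0.64 ± 0.18, adjusted p = 0.0138). This row averaged 1063 counts per library, against 1.85 counts for Egr1, although GENCODE M21 places no exon of another gene opposite Egr2. Which transcripts the Egr2 row holds was not tested. Ccnd1, the cyclin that ERK signaling induces for entry into the cell cycle, averaged 86.5 CPM in Erbb2-deficient tumors and 88.8 CPM in their adjacent tissue, and it did not pass in either genotype. Its row lies opposite LTO1.

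Of 19 rows of the RAS, RAF, MEK and ERK cascade 10 were tested, and in each genotype 0 rose in tumors and 1 fell, with list medians of -0.19 in Erbb2-deficient and -0.26 in control mice. The row that fell was Braf, the RAF kinase that RAS activates, which averaged 15.0 CPM in Erbb2-deficient tumors against 36.1 CPM in their adjacent tissue (adjusted p = 0.00182 by edgeR) and 17.6 CPM in control tumors against 32.4 CPM (adjusted p = 0.0246). The Braf call in control mice was lost without control tumor 1, without control tumor 3, without control adjacent sample 2, without control adjacent sample 5 and without control tumors 2 and 3 together. Its row lies opposite Ndufb2, a gene of mitochondrial electron transport, whose transcripts the Braf row may mainly hold.

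Of 16 ERBB receptor and ligand rows 4 were tested, with list medians of -0.41 in Erbb2-deficient and -0.17 in control mice. The row of Nrg4, a ligand of Erbb4, lies opposite Fbxo22, an F-box protein gene, and rose in both genotypes, by 0.48 ± 0.16 in Erbb2-deficient mice (adjusted p = 0.0282 by edgeR), a call lost without Erbb2-deficient tumor 1 or without Erbb2-deficient adjacent sample 4, and by 0.72 ± 0.16 in control mice (adjusted p = 0.00299). The Erbb2 row, which lies opposite Mien1, did not pass, at -1.23 ± 0.54 in Erbb2-deficient and -0.65 ± 0.57 in control mice. With no filter on low counts the calls of Nrg4 in both genotypes and of Egr2 and Braf in control mice were lost, and fitting only the groups compared lost those of Elk3, Egr2 and Braf in control mice. No row of these lists passed between genotypes, in tumors or adjacent tissue, or in the interaction.

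**Figure D4:**
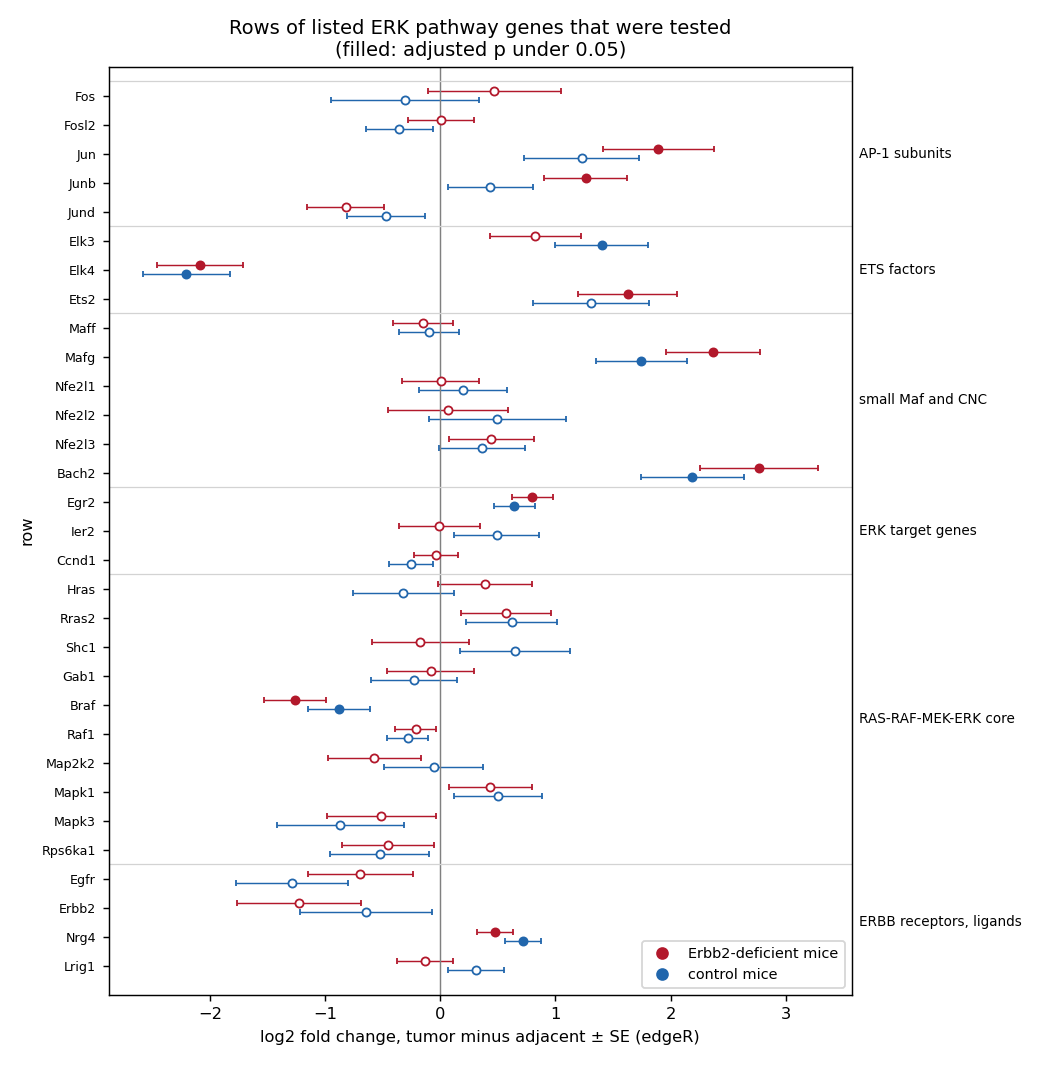
Log2 fold changes ± SE from edgeR, tumor over adjacent tissue, for the pathway rows described here that were tested, in Erbb2-deficient mice (red) and control mice (blue), with filled points for an adjusted p under 0.05. Bach2 and Mafg lie highest in Erbb2-deficient mice (2.77 and 2.37) and Elk4 lowest (-2.09), and each row with a filled point has the same sign in both genotypes.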

How the data were processed

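Per the labels' protocols, a kit that keeps strand (TruSeq Stranded mRNA) was used on total RNA. Each library's deposited file holds raw counts by gene symbol. The submitters' processing notes name Trimmomatic, HISAT2 2.2.1, HTSeq 2.0.2, DESeq2 and mm39; the strand setting of counting is not given in the sources used here. The 5 rows that name no gene (78.6% to 85.1% of reads on no feature, 0.0309% to 0.0868% ambiguous, and 12.1% to 18.1% in the other 3) were left out.

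Rows were filtered with filterByExpr (minimum count 10), which kept 7119, scaled with TMM, and fitted with edgeR 4.0.16 in R 4.3.3 as 4 group means over all 20 libraries with robust dispersion. The standard error is the log2 fold change divided by the square root of F, and intervals use the t distribution of the fit. Log2 CPM used a prior count of 2. GENCODE M21, of another build, was used only for overlapping and neighbouring genes. Alternatives were DESeq2 1.42.0, limma 3.58.1 voom with sample weights, other scaling and filters, a replicate block and left-out libraries. Every result given for limma voom used those sample weights. The fit was tested on simulated data. No 2 libraries of a group were alike within counting error.

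The genes and lists were chosen with earlier results of these data known. Besides the 5 genes, the rule named rows opposite or beside them, the 3 rows most alike (mean of at least 5 CPM, no predicted genes), and up to 4 rows of smallest p per list. A further row of the cascade list is not reported here.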

Additional observations from a re-analysis of the deposited data

Results flagged for a closer look

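Erbb2-deficient adjacent sample 2 stood far from the other 4 libraries of its group for both rows that rose in Erbb2-deficient tumors. Its Fosl1 row was at 31.6 CPM, where the other 4 were at 20.5 to 23.5 CPM, and its Phlda1 row was at 24.9 CPM, where the other 4 were at 7.94 to 10.6 CPM. The gap to the nearest library was 0.734 of the group's range for Fosl1 and 0.844 for Phlda1, above the critical value of Dixon's test for 5 samples. Of 24 groups of libraries checked in this way 2 passed, where chance gives about 1 in 20. The same sample was the highest of its group for Etv4, Mafk and Ccdc85b. Without it the log2 fold change of Erbb2-deficient tumors over adjacent tissue was 1.32 for Fosl1 and 2.03 for Phlda1, and both still passed the test.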

How the results depend on the processing

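The calls of Fosl1 and Phlda1 in Erbb2-deficient tumors held in all 31 alternatives, and no member passed in the other comparisons in any of theirs. With limma voom 4 members passed in Erbb2-deficient mice, and leaving out single libraries gave 2 to 2. Rows called between tumor and adjacent tissue were 1959 in Erbb2-deficient mice (2939 without control tumors 2 and 3, 3411 with voom, 1573 to 2719 without single libraries) and 1540 in control mice (2544, 2448 and 1188 to 2127, and 593 when only those groups were fitted). Between genotypes edgeR called 0 rows in tumors (817 at an unadjusted p under 0.05) and 0 in adjacent tissue (418), and 0 in the interaction (290). DESeq2 called 26 in tumors and 5 in adjacent tissue, no member among them. In adjacent tissue 1 row was called with no filter, 1 without control tumors 2 and 3, 13 with voom and 0 to 2 without single libraries (2 without control tumor 2, 1 without control adjacent sample 5).

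Values near 0 changed sign, and the cause was not tested. Without control tumors 2 and 3 the Mafk log2 fold change was 0.21 for control tumors over adjacent tissue, -0.33 between genotypes in tumors, -0.015 in adjacent tissue and -0.31 in the interaction; with voom it was 0.040, -0.14 and, in the interaction, -0.30. In adjacent tissue Mafk was also -0.0033 with DESeq2, -0.0033 with its size factors in edgeR, -0.0091 without mitochondrial rows and -0.023 with no filter. Without single libraries Mafk ran over -0.51 to 0.059 (control tumors), -0.22 to 0.36 (genotype in tumors), -0.14 to 0.12 (genotype in adjacent tissue) and -0.20 to 0.37 (interaction). Dusp4 in adjacent tissue was 0.053 with voom and -0.26 to 0.18 without single libraries, and the Etv4 interaction was -0.93 to 0.35, positive without control tumor 3.

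The replicate number as a block called 2034 rows in Erbb2-deficient and 1520 in control mice, or 1989 and 1428 with a block within genotype, and changed no member's call. The block within genotype lost the Elk3 call in control mice (adjusted p of 0.0751). Same-numbered tumor and adjacent libraries did not all deviate together (correlations of -0.016 to 0.228 in Erbb2-deficient and -0.115 to 0.37 in control mice, with the same number the best match for 1 of 5 and 3 of 5 libraries), so the numbers were not taken as pairs. Dusp4 and Etv4 gave no value under the stricter filter, nor Etv4 in control tumors and between tumors, nor Dusp4 between adjacent samples, when only the groups compared were fitted. Low counts limit Dusp4, Etv4 and the untested pathway rows.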
